A study of Mus musculus with 4 samples.

Results

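ATF4 is the transcription factor of the integrated stress response, and the 10 genes described here are Atf4 itself, Ddit3, and 8 genes of amino acid and one-carbon metabolism or of the stress response that are known ATF4 targets: Asns, Trib3, Chac1, Psat1, Phgdh, Shmt2, Mthfd2 and Pck2. They were taken by gene symbol from a count table of 55401 genes. The 10 symbols matched 11 entries, because Ddit3 is listed under a further Ensembl identifier that held 0 counts in every library. That empty entry was not tested, and the other 10 passed the filter on low counts. All 10 symbols matched the RefSeq gene table of the GRCm38.p6 assembly, to which the mm10 build named by the submitters corresponds.

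The assay was 4sU-seq, in which 4-thiouridine enters newly made transcripts so that they can be pulled out and sequenced, in 129/Ola mouse embryonic stem cells. The 5 h group (n = 2 libraries) came from SNRNP70AID cells given IAA, the auxin, for 5 h, and the labels give its genotype as SNRNP70 degradation. The 0 h group (n = 2) came from SNRNP70AID cells by title, without IAA, although the genotype label reads WT. Both groups therefore carry the degron tag on SNRNP70, a protein of the U1 snRNP that auxin marks for destruction, and no cells without the degron, with or without auxin, were analysed here. The labels do not say how many clones the line stands for, or whether cultures were separate, so p-values reflect only the spread between these samples, which may be technical. All cells grew in serum medium with leukemia inhibitory factor to which L-glutamine, non-essential amino acids and beta-mercaptoethanol had been added.

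Libraries held from 7174772 to 17752887 counts, the deepest and the shallowest both at 0 h. All 12 embryonic stem cell markers were tested, with summed levels of 4940 and 4822 CPM at 5 h and of 4738 and 4551 CPM at 0 h. Of these 12, 6 were called higher and 3 lower, so the sum holds changes in both directions. Here CPM are library-size-scaled counts (edgeR's cpm) after TMM normalisation, which sets the bulk of genes level between libraries. Of 7 feeder fibroblast markers 4 were at 0 in every library (Postn, Lum, Col3a1 and Dcn), and the 2 tested summed to 12.8 and 12.2 CPM at 5 h and to 9.93 and 9.16 CPM at 0 h. Of 12 markers of differentiated cells, Cdx2 and Afp were at 0 and the 8 tested summed to 29.9 and 33.7 CPM at 5 h and to 23.5 and 15.7 CPM at 0 h, with 1 (Sox1) called higher. Their part in the results was not tested. Across all tested genes the log2 fold change (5 h minus 0 h) had a median of -0.02 with TMM, of -0.28 when libraries were scaled to their totals and of -0.86 when they were scaled to the mitochondrially encoded genes. The mitochondrial share was 6.03% and 7.17% at 5 h, against 4.41% and 4.34% at 0 h. Fold changes are given with TMM, relative to the median gene. Library totals and mitochondrial scaling are named where they change the direction or call of a member or of a list gene named by lowest adjusted p. For other list genes they are named only in part. Labelled RNA was measured in bulk, so fewer cells with a transcript and less of it per cell cannot be told apart.

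In the integrated stress response, kinases that sense amino acid shortage, misfolded protein in the endoplasmic reticulum, double-stranded RNA or haem shortage phosphorylate the initiation factor eIF2alpha. Most translation then falls, while upstream reading frames in the Atf4 mRNA let more ATF4 protein be made. ATF4 pairs with C/EBP family proteins on a composite DNA element and activates genes for amino acid import and synthesis, tRNA charging and redox balance, with Ddit3 and Trib3 added under lasting stress. Serine made by Phgdh, Psat1 and Psph feeds the folate cycle, where mitochondrial Shmt2 and Mthfd2 pass its carbon on for purine and methyl group supply. Because ATF4 is set largely at translation, Atf4 RNA does not measure the protein.

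The promoter windows below show where the letters of the ATF4 element lie in the genes whose labelled RNA is reported next. Each runs from 250 bases before to 50 bases after the RefSeq start (GRCm38.p6), read 5' to 3' on the gene's strand, and capitals mark a match to TGATGNAA on either strand. The sets shown are Atf4, which has no match, and the 4 members with one.
Atf4: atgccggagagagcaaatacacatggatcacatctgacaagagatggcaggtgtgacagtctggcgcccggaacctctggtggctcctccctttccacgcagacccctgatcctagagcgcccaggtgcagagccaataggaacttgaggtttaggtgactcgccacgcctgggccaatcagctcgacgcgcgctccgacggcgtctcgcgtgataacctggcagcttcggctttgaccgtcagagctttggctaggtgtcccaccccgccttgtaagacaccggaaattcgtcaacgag
Trib3: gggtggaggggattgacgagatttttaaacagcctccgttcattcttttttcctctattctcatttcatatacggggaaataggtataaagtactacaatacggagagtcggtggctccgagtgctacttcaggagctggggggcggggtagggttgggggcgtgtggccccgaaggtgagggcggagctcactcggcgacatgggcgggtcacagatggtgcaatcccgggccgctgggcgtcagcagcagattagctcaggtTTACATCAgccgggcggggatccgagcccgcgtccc
Chac1: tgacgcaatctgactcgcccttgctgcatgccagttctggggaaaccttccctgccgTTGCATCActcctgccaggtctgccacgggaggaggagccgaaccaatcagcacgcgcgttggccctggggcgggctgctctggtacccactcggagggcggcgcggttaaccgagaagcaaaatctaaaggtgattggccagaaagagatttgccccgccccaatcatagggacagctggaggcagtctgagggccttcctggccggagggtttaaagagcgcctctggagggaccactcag
Asns: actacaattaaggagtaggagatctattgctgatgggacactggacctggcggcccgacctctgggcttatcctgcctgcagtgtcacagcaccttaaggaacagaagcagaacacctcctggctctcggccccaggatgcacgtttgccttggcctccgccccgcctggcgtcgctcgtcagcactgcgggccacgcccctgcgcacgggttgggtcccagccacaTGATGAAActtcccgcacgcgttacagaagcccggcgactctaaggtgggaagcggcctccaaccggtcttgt
Pck2: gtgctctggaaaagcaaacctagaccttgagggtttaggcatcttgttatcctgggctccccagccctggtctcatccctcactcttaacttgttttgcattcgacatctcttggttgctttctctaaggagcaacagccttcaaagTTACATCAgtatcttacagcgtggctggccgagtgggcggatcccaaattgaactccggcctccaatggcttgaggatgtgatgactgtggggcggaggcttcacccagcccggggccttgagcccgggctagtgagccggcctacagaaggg
The Atf4 window is chr15:80254934-80255233 on the plus strand, that of Trib3 is chr2:152344011-152344310 on the minus strand and that of Chac1 is chr2:119350992-119351291 on the plus strand. The Asns window is chr6:7693160-7693459 on the minus strand and that of Pck2 is chr14:55540016-55540315 on the plus strand.

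Chac1 held the full TGATGCAA, on the opposite strand as TTGCATCA, its first base 193 bases before the start. Asns held TGATGAAA 23 bases before the start, Pck2 held TTACATCA 103 bases before it, and Trib3 held TTACATCA 14 bases after it. These last 3 matched only TGATGNAA, which includes TGATGCAA. In 32851 RefSeq promoter windows of this length, 0.895% held TGATGCAA and 3.97% held TGATGNAA. Ddit3, Phgdh, Psat1 (in both of its windows), Shmt2 and Mthfd2 had neither in these windows. For Mthfd2 the window lies at a start inside the gene's RefSeq span. Of the 3 genes that fell (below), Pck2 had a match and Psat1 and Mthfd2 had none, and Trib3, which rose, had one. Across 11017 tested genes with a window, the 285 with TGATGNAA had a median log2 fold change of -0.33, against -0.08 for the others, as a description without a test.

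After 5 h of auxin, labelled RNA of Pck2, Psat1 and Mthfd2 was lower and that of Trib3 was higher, while Atf4 and the other 5 genes did not pass the test. By edgeR's quasi-likelihood test, adjusted over 17344 genes, 4 of the 10 were called (adjusted p under 0.05), against 43.2% of all tested genes. In the lower direction 3 of 10 were called, against 21.2% of all genes, and in the higher direction 1 of 10, against 22.0%. The median log2 fold change of the 10 was -0.21, and -0.47 with library totals and -1.05 with mitochondrial scaling, below the median of all genes with each scaling. By library totals 4 of the 10 were called lower and 0 higher, against 30.3% and 13.2% of all tested genes. By mitochondrial scaling 9 of the 10 were lower and 0 higher, against 51.2% and 2.28% of all tested genes. The levels of 6 of the 10 did not overlap between the groups, as was so for 73.5% of all tested genes. With TMM, counts this near to those of all tested genes set the 10 genes apart neither in how many changed nor in how many separated. More were called among well-covered genes. With at least 50 counts in both libraries of a group, 61.9% of 11701 genes were called, and 4 of the 10. The 10 were not otherwise matched to all genes by coverage. Summed over the 10 genes, labelled RNA came to 884 and 858 CPM at 5 h, against 903 and 933 CPM at 0 h.

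**Figure D1:**
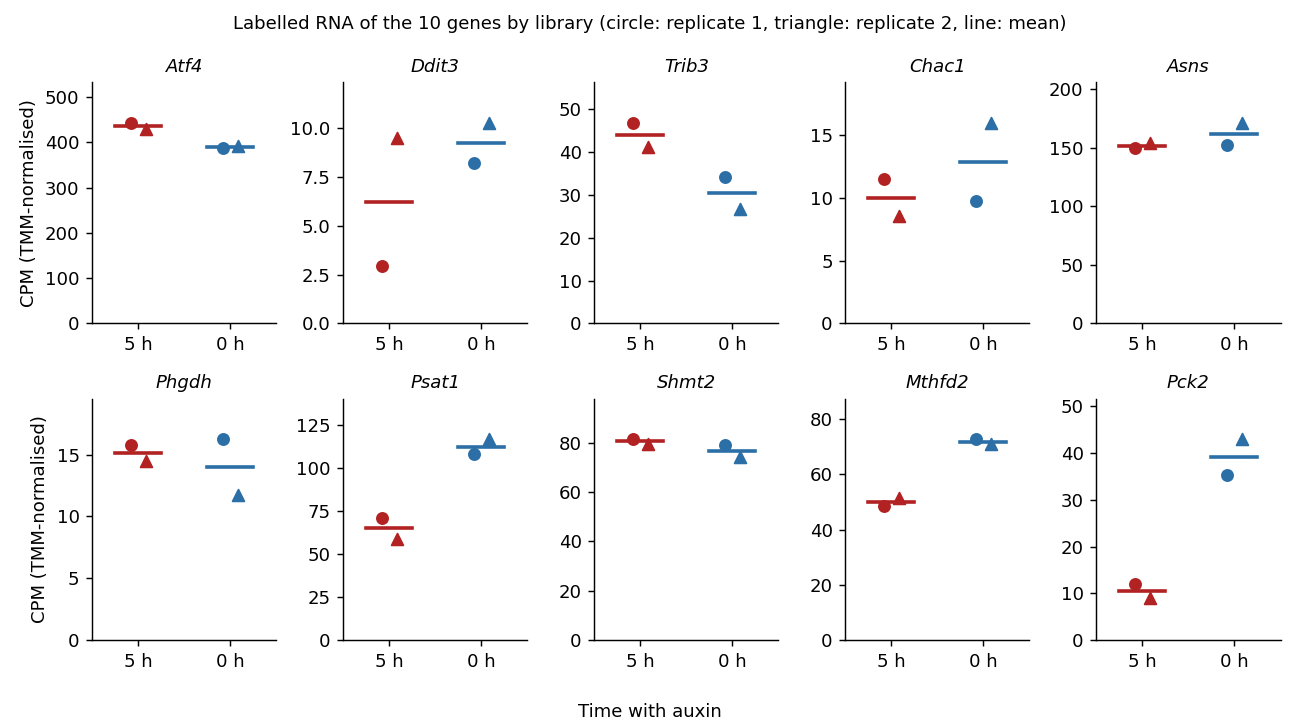
Labelled RNA of each of the 10 genes in TMM-normalised CPM (vertical axes from 0, a scale per gene) in the 5 h and 0 h libraries, with circles for replicate 1, triangles for replicate 2 and lines for group means. Pck2, Psat1 and Mthfd2 sit lower at 5 h and Trib3 higher, and the 2 libraries of 5 h stand apart from each other for Ddit3 (2.97 and 9.51 CPM).

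Atf4, on chromosome 15 from 80255184 to 80257545, had 444 and 431 CPM at 5 h, against 387 and 392 CPM at 0 h. Both 5 h libraries lay above both 0 h libraries, by little. The log2 fold change was 0.17 ± 0.08 (SE; 95% confidence interval -0.02 to 0.35), a 1.12-fold difference that did not pass (edgeR, Benjamini-Hochberg adjusted p = 0.127). With library totals it was -0.10, also not past the threshold, and with mitochondrial scaling -0.68, which passed as lower. Atf4 thus had no direction that held across the scalings, and the interval with TMM leaves room for no change and for a rise of 0.35 on the log2 scale. A span of 2.36 kb places Atf4 among the short genes. The 3017 tested genes with a RefSeq span under 5 kb had a median of 0.49, and 32.1% of them rose and 4.71% fell.

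The genes whose pattern over the 4 libraries was most like that of Atf4 were Mat2b, Birc6, Fnbp4, Ercc6l and Pwwp3a. Likeness was the root mean square difference of log2 CPM, each gene centred on its own mean, and lay between 0.00924 and 0.0157 for these 5 among 7004 genes with a mean of at least 20 CPM. Shmt2, the nearest of the other 9 members, was at 0.0604 and Pck2, the farthest, at 1.04. With 4 libraries in 2 groups this measure mostly picks genes with the same small group difference.

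Ddit3 encodes CHOP, a transcription factor induced by ATF4 that promotes cell death under lasting stress. It spans 127290793 to 127296291 on chromosome 10 and had 2.97 and 9.51 CPM at 5 h (43 and 88 counts), against 8.24 and 10.3 CPM at 0 h (160 and 81 counts). Only 5 h replicate 1 was low, 5 h replicate 2 lay within the 0 h range, and the groups overlapped. Its fitted log2 change was -0.60 ± 0.46 (SE), with an interval from -1.63 to 0.43, and did not pass (edgeR, Benjamini-Hochberg adjusted p = 0.324). With all libraries kept, mitochondrial scaling gave -1.50, which passed as lower. With TMM a single library decided the value. It was 0.045 without 5 h replicate 1, and without 5 h replicate 2 it was -1.62 and passed (edgeR, Benjamini-Hochberg adjusted p = 0.00514).

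In the RefSeq table Ddit3 shares 77 bases with Mbd6 at one end and 71 bases with Mars1 at the other, and the strand setting of the counting was not given in the sources used here. Mbd6 had 1700 and 961 counts at 5 h, against 942 and 294 at 0 h, and a log2 fold change of 1.35. Mars1, the methionyl-tRNA synthetase, had 808 and 514 counts at 5 h, against 1507 and 572 at 0 h, and a log2 fold change of -0.44. Without that setting it is not known how reads in the shared ends were assigned, and their part in the Ddit3 value was not tested. Shmt2 shares 32 bases with Ndufa4l2, which was not among the tested genes, and no other member overlapped another RefSeq gene.

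Trib3, a pseudokinase that binds ATF4 and holds back its activity and that of AKT, was the member that rose. It spans 152337425 to 152344060 on chromosome 2 and had 47.0 and 41.2 CPM at 5 h, against 34.1 and 26.8 CPM at 0 h. All 5 h values lay above all 0 h values. Its log2 change was 0.52 ± 0.16 (SE), or 1.43-fold (edgeR, Benjamini-Hochberg adjusted p = 0.0215), which is at percentile 73.9 of all tested genes. The call was lost without 0 h replicate 2 (0.37), without 5 h replicate 1 (0.41) and with library totals (0.26), and the value was -0.31, not past the threshold, with mitochondrial scaling. Over the 15 alternatives the adjusted p for Trib3 ran from 0.00778 to 0.282.

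Chac1 encodes a cyclotransferase that breaks down glutathione and is among the ATF4 targets that respond most readily to stress. It lies on chromosome 2 from 119351242 to 119354326 and had 11.5 and 8.54 CPM at 5 h, against 9.78 and 16.0 CPM at 0 h. Here 0 h replicate 2 was high, and 0 h replicate 1 lay between the 5 h libraries. On the log2 scale the change was -0.32 ± 0.29 (SE), with an interval from -0.96 to 0.31 (edgeR, Benjamini-Hochberg adjusted p = 0.400), and 0.046 without 0 h replicate 2. With mitochondrial scaling Chac1 was at -1.16 and was called lower. At 79 to 190 counts per library this gene and Ddit3 were the most thinly covered of the 10, together with Pck2 at 5 h and Phgdh.

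**Figure D2:**
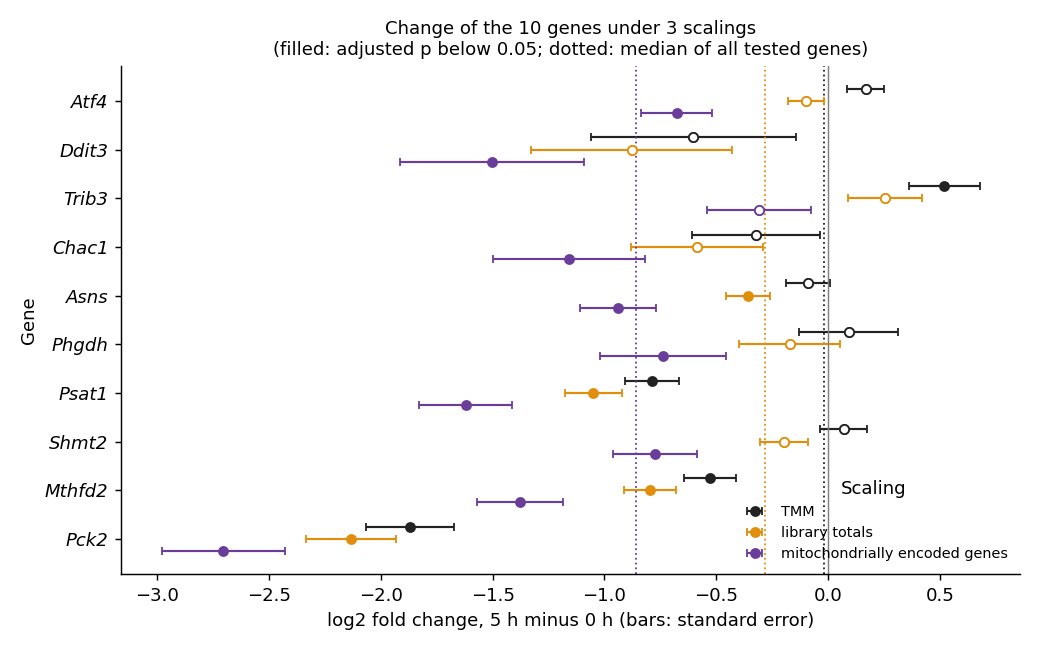
The log2 fold change (5 h minus 0 h, horizontal axis, bars for the standard error) of each of the 10 genes with TMM, library totals and mitochondrial scaling, filled where the adjusted p was below 0.05, with dotted lines at the median of all tested genes. Pck2, Psat1 and Mthfd2 are filled and left of 0 with all 3 scalings, and Trib3 is filled only with TMM and left of 0 with mitochondrial scaling.

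Asns, the asparagine synthetase, is a textbook target of the amino acid response. It spans 7675165 to 7693209 on chromosome 6 and had 149 and 154 CPM at 5 h, against 152 and 171 CPM at 0 h. The groups overlapped, and the log2 fold change of -0.09 ± 0.10 (SE; interval -0.31 to 0.13) did not pass (edgeR, Benjamini-Hochberg adjusted p = 0.503). With library totals (-0.36) and mitochondrial scaling (-0.94) it was called lower.

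Among the serine synthesis genes, Psat1 fell and Phgdh did not pass. Psat1, the phosphoserine aminotransferase, lies on chromosome 19 from 15905123 to 15925059 and had 71.1 and 59.0 CPM at 5 h, against 108 and 117 CPM at 0 h. Both 5 h libraries were well below both 0 h libraries. The mean was 65.0 ± 8.52 CPM at 5 h and 113 ± 6.22 CPM at 0 h (SD, n = 2 each). The log2 fold change of -0.79 ± 0.12 (SE), or 1.72-fold lower, passed (edgeR, Benjamini-Hochberg adjusted p = 0.000504) and did so under all 15 alternatives, between -1.62 and -0.65.

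Phgdh, the dehydrogenase at the entry to serine synthesis, spans 98313171 to 98339969 on chromosome 3. It had 15.7 and 14.5 CPM at 5 h, against 16.3 and 11.7 CPM at 0 h, so both 5 h values lay between the 0 h values. Its log2 change was 0.09 ± 0.22 (SE), with an interval from -0.40 to 0.58 (edgeR, Benjamini-Hochberg adjusted p = 0.766). With library totals it was -0.17, without 0 h replicate 2 it was -0.10, and with mitochondrial scaling it was -0.74 and passed. Psph, the phosphatase that completes the pathway and no member, had 11.3 and 12.0 CPM at 5 h and 9.88 and 10.2 CPM at 0 h, with a log2 fold change of 0.21 (-0.054 with library totals and -0.63 with mitochondrial scaling) that passed with none of the 3. Of the 3 enzymes from the glycolytic intermediate to serine, Psat1 alone was called with TMM, and the difference between Psat1 and the other 2 was not tested.

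Within the mitochondrial folate branch Mthfd2 fell and Shmt2 did not pass. Mthfd2, a methylenetetrahydrofolate dehydrogenase and cyclohydrolase that is high in proliferating cells, lies on chromosome 6 from 83305704 to 83326011. It had 48.4 and 51.4 CPM at 5 h, against 72.8 and 71.0 CPM at 0 h. The 2 libraries of each group were close, and the groups were well apart. This log2 change of -0.53 ± 0.12 (SE), 1.44-fold lower, passed (edgeR, Benjamini-Hochberg adjusted p = 0.00425) and stayed past the threshold under all 15 alternatives, between -1.38 and -0.49. Its RefSeq span of 20.3 kb puts it, just above the class edge, among 3741 tested genes of 20 to 50 kb. These had a median of -0.21, with 31.6% lower. The promoter window of Mthfd2 lies at a start inside that span, from which the gene would be shorter. The 4637 tested genes of 5 to 20 kb had a median of -0.01, with 20.2% lower.

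Shmt2, the mitochondrial serine hydroxymethyltransferase, spans 127517123 to 127522444 on chromosome 10. It had 81.5 and 79.5 CPM at 5 h, against 79.0 and 74.3 CPM at 0 h. The 5 h values lay just above the 0 h values, with a log2 fold change of 0.07 ± 0.11 (SE; interval -0.17 to 0.31) that did not pass (edgeR, Benjamini-Hochberg adjusted p = 0.637). It was -0.20 with library totals and, past the threshold, -0.77 with mitochondrial scaling.

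Pck2 had the largest change of the 10 genes. It encodes the mitochondrial phosphoenolpyruvate carboxykinase, which turns oxaloacetate into phosphoenolpyruvate and can feed serine synthesis when glucose is short. The gene spans 55540263 to 55550020 on chromosome 14 and had 12.0 and 9.08 CPM at 5 h (174 and 84 counts), against 35.3 and 43.0 CPM at 0 h (686 and 338 counts). Every 5 h value was far below every 0 h value. Its mean was 10.5 ± 2.08 CPM at 5 h and 39.2 ± 5.44 CPM at 0 h (SD, n = 2 each). The fitted log2 fold change of -1.87 ± 0.20 (SE; interval -2.30 to -1.43), or 3.65-fold lower, passed (edgeR, Benjamini-Hochberg adjusted p = 6.06e-05), at percentile 3.13 of all tested genes. It passed under all 15 alternatives, between -2.70 and -1.69, with adjusted p from 9.53e-18 to 0.000421.

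Members of the same span class differed in their change, and the part of span in these values was not tested. Pck2 (9.76 kb), Psat1 (19.9 kb), Asns (18.0 kb), Trib3 (6.64 kb), Ddit3 (5.50 kb) and Shmt2 (5.32 kb) all fell in the class of 5 to 20 kb, where 4637 tested genes had a median of -0.01, with 24.8% higher and 20.2% lower. The 6 members in that class ran from -1.87 to 0.52. Chac1, at 3.09 kb, was the other member under 5 kb, and Phgdh, at 26.8 kb, the other member of 20 to 50 kb. The median span of the 10 was 8.20 kb, against 19.3 kb for all tested genes with a span.

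Ratios between members of the same library do not depend on how libraries are scaled. Pck2 counts were 2.71% and 2.11% of those of Atf4 at 5 h, against 9.12% and 11.0% at 0 h, a ratio of the mean shares of 0.239. Psat1 counts were 16.0% and 13.7% of Atf4 counts at 5 h, against 27.9% and 29.9% at 0 h. Mthfd2 stood at 10.9% and 11.9% at 5 h, against 18.8% and 18.1% at 0 h. All 3 therefore lost ground to Atf4 in both 5 h libraries, whatever the scaling.

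Asns counts were 33.7% and 35.8% of those of Atf4 at 5 h, against 39.3% and 43.8% at 0 h, without overlap. Shmt2 was close in all libraries, at 18.3% and 18.5% at 5 h, against 20.4% and 19.0% at 0 h. Trib3 was the member that gained on Atf4, at 10.6% and 9.56% at 5 h, against 8.81% and 6.86% at 0 h. For Ddit3, Chac1 and Phgdh the shares of the groups overlapped. The ratio to Atf4 did not overlap between groups for 6 of the other 9 members, as was so for 73.1% of all other tested genes, and an exact permutation test of 2 against 2 libraries cannot give a p below 0.333. These percentages compare counts, which also depend on transcript length, so they show shifts between libraries and not which gene is expressed more.

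**Figure D3:**
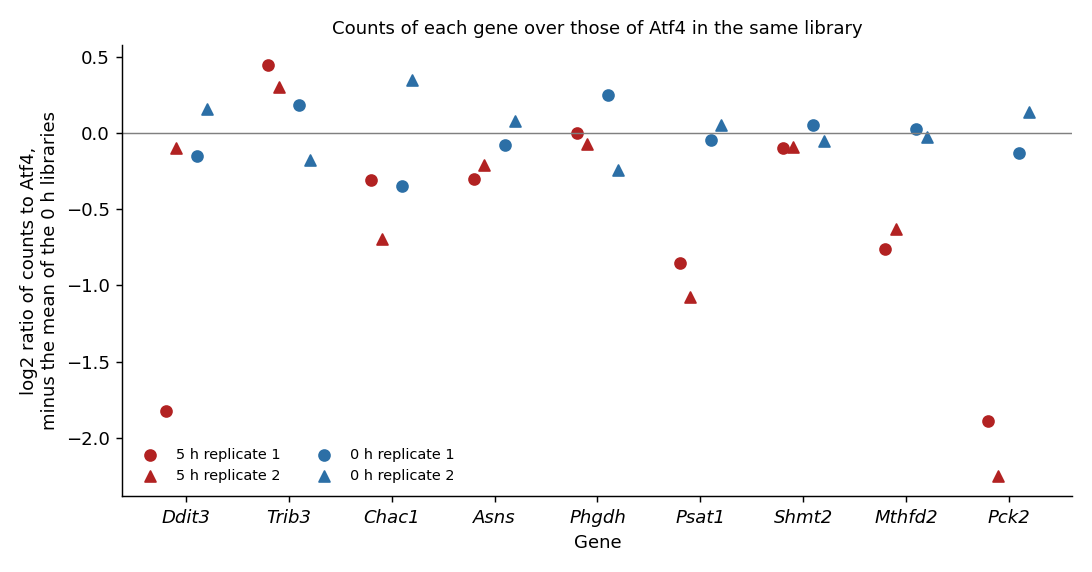
The log2 ratio of each gene's counts to those of Atf4 in the same library (vertical axis), minus the mean of that ratio in the 0 h libraries, with 1 point per library. The 5 h points of Pck2, Psat1 and Mthfd2 lie below all 0 h points, those of Trib3 lie above, and 5 h replicate 1 is far below the other 3 libraries for Ddit3.

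The other genes of the pathway were described through 7 lists. With TMM each is set against the 22.0% of all tested genes called higher and the 21.2% called lower. With library totals the shares of all tested genes were 13.2% higher and 30.3% lower. With mitochondrial scaling they were 2.28% higher and 51.2% lower. The TMM shares were larger among well-covered genes. With the stricter count filter (at least 50 counts in both libraries of a group), 30.3% of 11701 genes were higher and 31.6% lower. The lists were not matched to all genes by coverage. In the control of eIF2alpha, 7 of 17 genes were higher and 3 lower, with a median of 0.27. By library totals the median was 0.01, with 4 higher and 7 lower, and by mitochondrial scaling -0.56, with 0 higher and 10 lower. Both regulatory subunits that direct the eIF2alpha phosphatase rose with TMM. Ppp1r15b, the constitutive one, had 974 and 998 CPM at 5 h, against 616 and 629 CPM at 0 h, a log2 fold change of 0.66 ± 0.08 (SE; edgeR, Benjamini-Hochberg adjusted p = 0.000127). Ppp1r15a, the stress-induced one (GADD34) and itself an ATF4 target, had 84.0 and 73.2 CPM at 5 h, against 44.1 and 45.2 CPM at 0 h, a log2 fold change of 0.82. Eif2b5, the catalytic subunit of the exchange factor eIF2B, rose by 0.70. With mitochondrial scaling these 3 values were -0.19, -0.02 and -0.14, none past the threshold.

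Of the eIF2alpha kinases, Eif2ak4 (GCN2, the sensor of amino acid shortage) fell, with 13.9 and 10.7 CPM at 5 h, against 23.1 and 19.2 CPM at 0 h (log2 fold change -0.78; edgeR, Benjamini-Hochberg adjusted p = 0.0119), as did Eif2ak2 (PKR, -0.72). Eif2ak1 (HRI) rose with TMM (0.36) and did not pass with library totals (0.093) or mitochondrial scaling (-0.48). Eif2ak3 (PERK) did not pass with TMM (0.27) and was called lower with mitochondrial scaling (-0.56). These 4 were named after their values were seen.

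ATF4 partners and other stress targets had a median of 0.36, with 10 of 24 tested genes higher and 3 lower. Ddit4 (REDD1), which restrains mTORC1, had 94.5 and 80.1 CPM at 5 h, against 30.3 and 27.1 CPM at 0 h, 3.03-fold higher (log2 1.60 ± 0.14, SE; edgeR, Benjamini-Hochberg adjusted p = 2.28e-05). Sesn2, which signals amino acid shortage to mTORC1, rose by 1.07 on the log2 scale, with 552 and 479 CPM at 5 h, against 256 and 234 CPM at 0 h. Map1lc3b, an autophagy protein, rose by 1.08. All 3 kept positive values with mitochondrial scaling (0.77, 0.24 and 0.24), where Ddit4 alone of them passed. With that scaling the list had a median of -0.48, with 1 higher and 8 lower, and with library totals a median of 0.09, with 9 higher and 3 lower. Sesn2 and Ddit4 are also known p53 targets, as are Bbc3, Cdkn1a and Tnfrsf10b, which were among the 10 higher with TMM. Bbc3, Cdkn1a and Tnfrsf10b were not called higher with mitochondrial scaling. The part of p53 in the list's median was not tested. The 3 lower with TMM were Nfe2l2 (-0.79), Stc2 (-0.96) and Ero1l (-0.39). Bbc3, Cdkn1a, Tnfrsf10b and the 3 lower genes were named after their values were seen.

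Among the enzymes around serine, glycine and the folate cycle more genes were lower than higher. The lists were chosen with earlier results of these data known, so differences between lists are described and were not tested. Of 22 tested genes, 12 were lower and 2 higher, with a median of -0.47. By library totals 14 were lower and 2 higher (median -0.74), and by mitochondrial scaling 18 were lower and 0 higher (median -1.32). Gart, a purine synthesis enzyme that uses formyl folate, fell by 1.26 on the log2 scale, to 76.8 and 75.4 CPM at 5 h, against 174 and 190 CPM at 0 h (edgeR, Benjamini-Hochberg adjusted p = 1.74e-05). Sfxn1, a mitochondrial serine carrier, changed by -1.14 and Mtrr, which reactivates methionine synthase, by -1.05. These 3 were lower with all scalings run. The list's median span was 24.0 kb, and the part of span in its median was not tested.

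Amino acid transport and synthesis genes gave 10 lower and 4 higher of 25, with a median of -0.40. By library totals 17 were lower and 1 higher (median -0.66), and by mitochondrial scaling 21 were lower and 0 higher (median -1.24). Slc1a4, a transporter of serine, alanine and other neutral amino acids, had 10.4 and 7.03 CPM at 5 h, against 32.5 and 39.2 CPM at 0 h, 4.04-fold lower (log2 -2.01 ± 0.22, SE; edgeR, Benjamini-Hochberg adjusted p = 6.85e-05). Cth, which makes cysteine from cystathionine, changed by -0.76.

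Of 13 genes of tRNA charging and export known as ATF4 targets (cytosolic aminoacyl-tRNA synthetases and the tRNA exporter Xpot), 5 were lower and 3 higher, with a median of -0.22. By library totals 9 were lower and 0 higher (median -0.49), and by mitochondrial scaling 12 were lower and 0 higher (median -1.08). Iars and Lars, which charge isoleucine and leucine tRNAs, changed by -0.99 and -0.85 and were lower with all scalings. Tars, for threonine, rose by 0.48 with TMM and did not pass with library totals (0.21) or mitochondrial scaling (-0.38). The median span of these 13 genes was 34.1 kb.

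Genes listed under the IRE1 and ATF6 arms of the unfolded protein response were higher in 7 of 21 cases and lower in 3 with TMM, with a median of 0.08. By library totals 6 were higher and 6 lower (median -0.18), and by mitochondrial scaling 0 were higher and 13 lower (median -0.75). Hspa5 (BiP), the main chaperone of the endoplasmic reticulum, had 806 and 857 CPM at 5 h, against 432 and 426 CPM at 0 h, a log2 fold change of 0.95 ± 0.08 (SE; edgeR, Benjamini-Hochberg adjusted p = 2.49e-05). Its co-chaperone Dnajb9 rose by 1.19, and both stayed above 0 with mitochondrial scaling (0.10 and 0.33, not past the threshold). Sel1l, of the degradation complex at the same membrane, changed by -1.19 and was lower with all scalings.

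Among 10 heat shock and oxidative stress genes, 6 were higher and 3 lower with TMM (median 0.64) and likewise by library totals (median 0.37). By mitochondrial scaling 2 were higher and 4 lower (median -0.21). The inducible chaperones Hspa1b and Hspa1a, near-identical copies whose reads can be shared, rose by 2.25 and 2.76 on the log2 scale, and their co-chaperone Dnajb1 by 0.96. Hspa1b and Hspa1a also passed as higher with mitochondrial scaling (1.97 for Hspa1a), and Dnajb1, at 0.11, did not. The heat shock genes Hspb1 and Hsph1 were also higher with TMM and were not called higher with mitochondrial scaling. The oxidative stress genes were mixed with TMM. Hmox1 rose (0.70, not called higher with mitochondrial scaling), Gclm did not pass with TMM, and Nqo1 (-1.03), Srxn1 (-1.02) and Txnrd1 (-0.32) were the 3 lower. The genes from Hspb1 to Txnrd1 were named after their values were seen. Snrnp70 itself had 451 and 475 CPM at 5 h, against 249 and 243 CPM at 0 h, and since the degron acts on the protein this level does not check the labels.

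**Figure D4:**
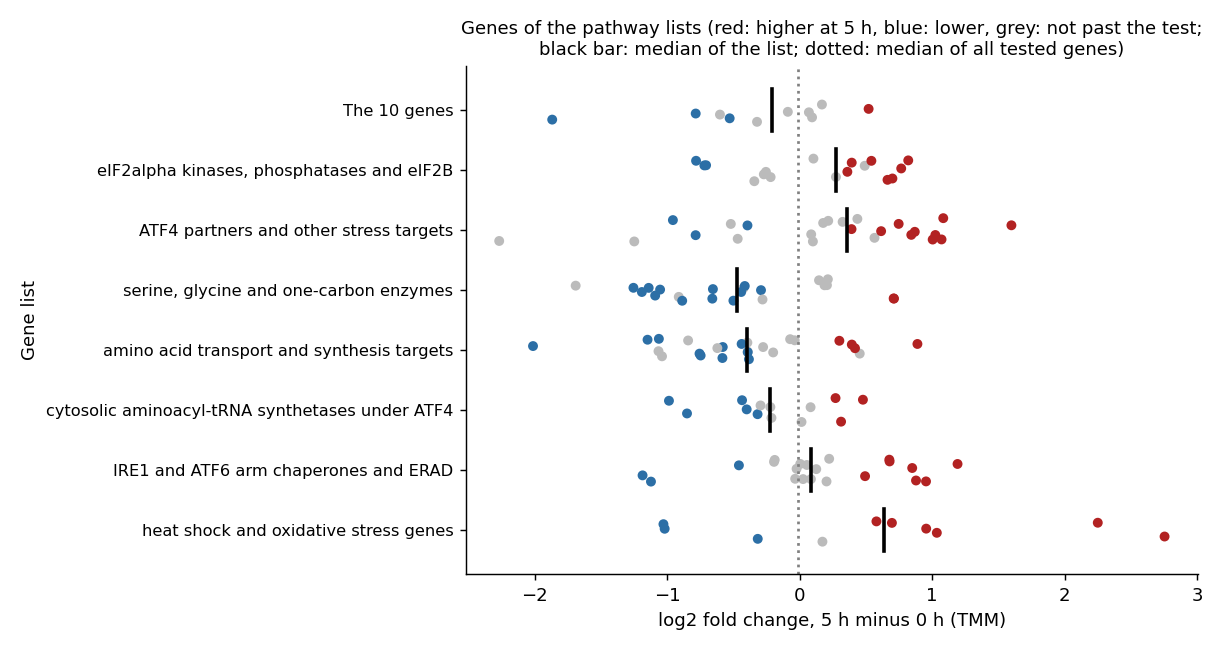
The log2 fold change (5 h minus 0 h, TMM, horizontal axis) of each tested gene of the 10 members and of the 7 other lists, red where higher and blue where lower past the test and grey otherwise, with a black bar at the list's median. The serine, glycine and one-carbon list has its median at -0.47 and the list of ATF4 partners and stress targets at 0.36, with genes on both sides of 0 in every list.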

How the data were processed

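The authors deposited 1 table of whole-number gene counts for 4 libraries, with no column of another sample. The submitters' processing notes name mm10, DESeq2 1.42.0, StringTie 2.2.1 and HISAT2 2.2.1 without a role for each, and the annotation and strand setting are not given in the sources used here. The deposited values were taken as estimated counts, since the row names join an ID and a symbol, as StringTie's count export does, and the value 3 is more frequent than 2 in every library, so 1 fragment may be worth several counts. A floor of 3 counts lies at 0.154 to 0.382 CPM, for counting error only. Labelling time and spike-in are not given in the sources used here.

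Genes kept by filterByExpr (17344) were fitted in edgeR 4.0.16 (TMM, robust quasi-likelihood test, 5 h minus 0 h). The threshold was 0.05 after Benjamini-Hochberg adjustment. The script was tested on simulated data. Sequences and positions are from RefSeq. The alternatives were 4 other scalings, 2 count filters, DESeq2 1.42.0, limma-voom (limma 3.58.1), no robust estimation, counts divided by 4, a replicate block and leaving out each library. The members and lists were chosen with earlier results of these data known. The named genes are the members, the 3 genes of each other list with the lowest adjusted p, Snrnp70 and the 5 genes nearest to Atf4. One gene that this rule names is not reported here. Others are said to be chosen after their values were seen, and Psph, Mars1 and Mbd6 are named for their place beside a member.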

Additional observations from a re-analysis of the deposited data

How the results depend on the processing

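Pck2, Psat1 and Mthfd2 kept their direction and their call under all 15 alternatives, and 132 of 150 values of the 10 members kept both direction and side of the threshold. With all libraries kept, the number of members called was 4 under 10 of 11 alternatives (the same genes under 9) and 9 with mitochondrial scaling, where Trib3 was the exception, and between 3 and 5 when 1 library was left out. Values that turned their sign were those of Atf4 (-0.10 with library totals, -0.68 with mitochondrial scaling), Phgdh (-0.17 and -0.74) and Shmt2 (-0.20 and -0.77), and of Trib3 with mitochondrial scaling (-0.31). By construction that scaling moves the median gene to -0.86, and 53.4% of all tested genes were called with it, against 43.2% with TMM. Leaving out 1 library gave 0.045 for Ddit3 (lowest -1.62), 0.046 for Chac1 (lowest -0.67) and -0.10 for Phgdh (range -0.10 to 0.37). Over all genes the count called was 7491, and between 5927 and 7297 without 1 library. Whether equal replicate numbers mark paired libraries is not given, and these 4 libraries cannot settle it. The deviations of same-numbered libraries from their group means correlated at r = 0.0505 across genes, and the fit with a replicate block called 7382 genes and the same 4 members. With TGATGNAA in place of TGATGCAA, 4 members in place of 1 had a match. Ddit3 and Chac1 had the widest intervals of the members, 2.06 and 1.27 on the log2 scale, and the part of depth in this was not tested.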
